A study of Arabidopsis thaliana with 6 samples.

Results

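Arabidopsis makes ethylene with the enzymes of 2 gene families, and 9 of their genes, 4 for 1-aminocyclopropane-1-carboxylate (ACC) oxidases and 5 for ACC synthases, were followed here in flowers of the atnaod mutant and the wild type. The genes were taken by locus code: a probe belonged to the set when the code that the array's annotation gives it equalled ACO1 (AT2G19590), AT1G12010, ACO4 (AT1G05010, also called EFE, for ethylene-forming enzyme), ACO5 (AT1G77330), ACS2 (AT1G01480), ACS6 (AT4G11280), ACS7 (AT4G26200), ACS8 (AT4G37770) or ACS11 (AT4G08040). This gave 11 of the 43603 probes on the array. ACO1 and ACO4 had 2 probes each and the other 7 genes had 1. By their locus codes 4 of the genes lie on chromosome 1, 1 on chromosome 2 and 4 on chromosome 4. AT1G12010 is an ACC oxidase gene that carries no symbol in the gene table used here, and it is called by its locus code. The array's annotation is of another genome build than that table, so no coordinates are given.

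The mutant plants carried a T-DNA insertion, named atnaod in the labels, in the gene AtNAOD (AT4G17830), which encodes N-acetylornithine deacetylase and so serves the making of ornithine. They were set against wild-type plants, with 3 samples of each genotype that the submitters describe as independent biological replicates. Each sample was total RNA of about 100 whole fertilised flowers at stage 15, pooled over 17 to 20 plants grown on soil at a constant 25 °C in 16 h days with 8 h nights, and was hybridised to 1 single-colour Agilent array. The labels name neither the accession of the wild type nor a second insertion line, and 1 insertion allele stands for the loss of the gene. The numbers below are log2 fluorescence intensity minus the 75th percentile of the probes on the same array, called the log2 level, so that 0 is the intensity of that percentile. Levels of different probes cannot be set against each other, since probes differ in how brightly they bind.

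In plants methionine is activated to S-adenosylmethionine (SAM), ACC synthases turn SAM into ACC, and ACC oxidases turn ACC into ethylene. The synthase step is often the limiting one and is controlled both at the mRNA and through the stability of the protein, while the oxidase step can limit ethylene output where ACC is plentiful. SAM decarboxylases draw on the same SAM to make polyamines, whose other precursor Arabidopsis derives from arginine and thus from ornithine, and ethylene in flowers is known for its part in petal senescence and the shedding of floral organs.

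The array check of the genotype came out as labelled. AtNAOD had a log2 level of -7.25, -7.24 and -6.92 in atnaod flowers, against 1.77, 1.63 and 1.70 in wild-type flowers. The probe was not well above background on any atnaod array, and its signal was at least 369-fold lower in atnaod than in wild type when the atnaod arrays were set to their detection floor or, if higher, the measured value (limma, adjusted p = 4.26e-07). The measured difference of -8.84 was -6.17 with normexp background correction and -6.37 with the deposited values. A second AtNAOD probe, well above background on all 6 arrays, differed by -1.23 (limma, adjusted p = 0.0201), and where either probe lies relative to the insertion was not analysed here. The 9 flower organ identity genes AP1, AP2, AP3, PI, AG and SEP1 to SEP4 were above background on all 6 arrays. By limma 0 of the 9 were called different between the genotypes, beside 5.76% of all genes tested. An unadjusted p under 0.05 was found for 0 of the 9, beside 25.8% of all genes. AP2 was lower in all 3 atnaod samples (difference -0.21, limma's adjusted p 0.201). Arrays correlated at 0.988 to 0.994 within a genotype and at 0.980 to 0.988 between genotypes, and 73.2% to 79.2% of the probes on an array were well above background.

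Of the 8 genes of the set that could be tested, 1 rose in atnaod flowers and 0 fell. Testing a gene took a probe that the scanner software marked as well above background in every sample of atnaod, of wild type or of both, and 24455 genes met this. A call took an adjusted p under 0.05 in limma, with the adjustment made over these 24455 genes. Over all those genes 5.76% were called, 2.72% as higher and 3.05% as lower in atnaod. The gene that rose was AT1G12010. ACO5 also had an unadjusted p under 0.05, which makes 2 of 8 (25%) beside 25.8% of all genes. The median difference of the 8 genes was 0.25 on the log2 scale, beside -0.01 for all genes, with 6 genes (75%) above 0, beside 48.8% of all genes, and 2 below. ACS7 and ACS8 passed the signal filter through atnaod alone, the genotype where they were higher, so this median and these signs are descriptions that lend no support to a shift of the set. The 3 atnaod samples lay above the 3 wild-type samples for 1 of the 8 genes, AT1G12010, a share of 12.5% beside 15.3% of all genes.

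**Figure D1:**
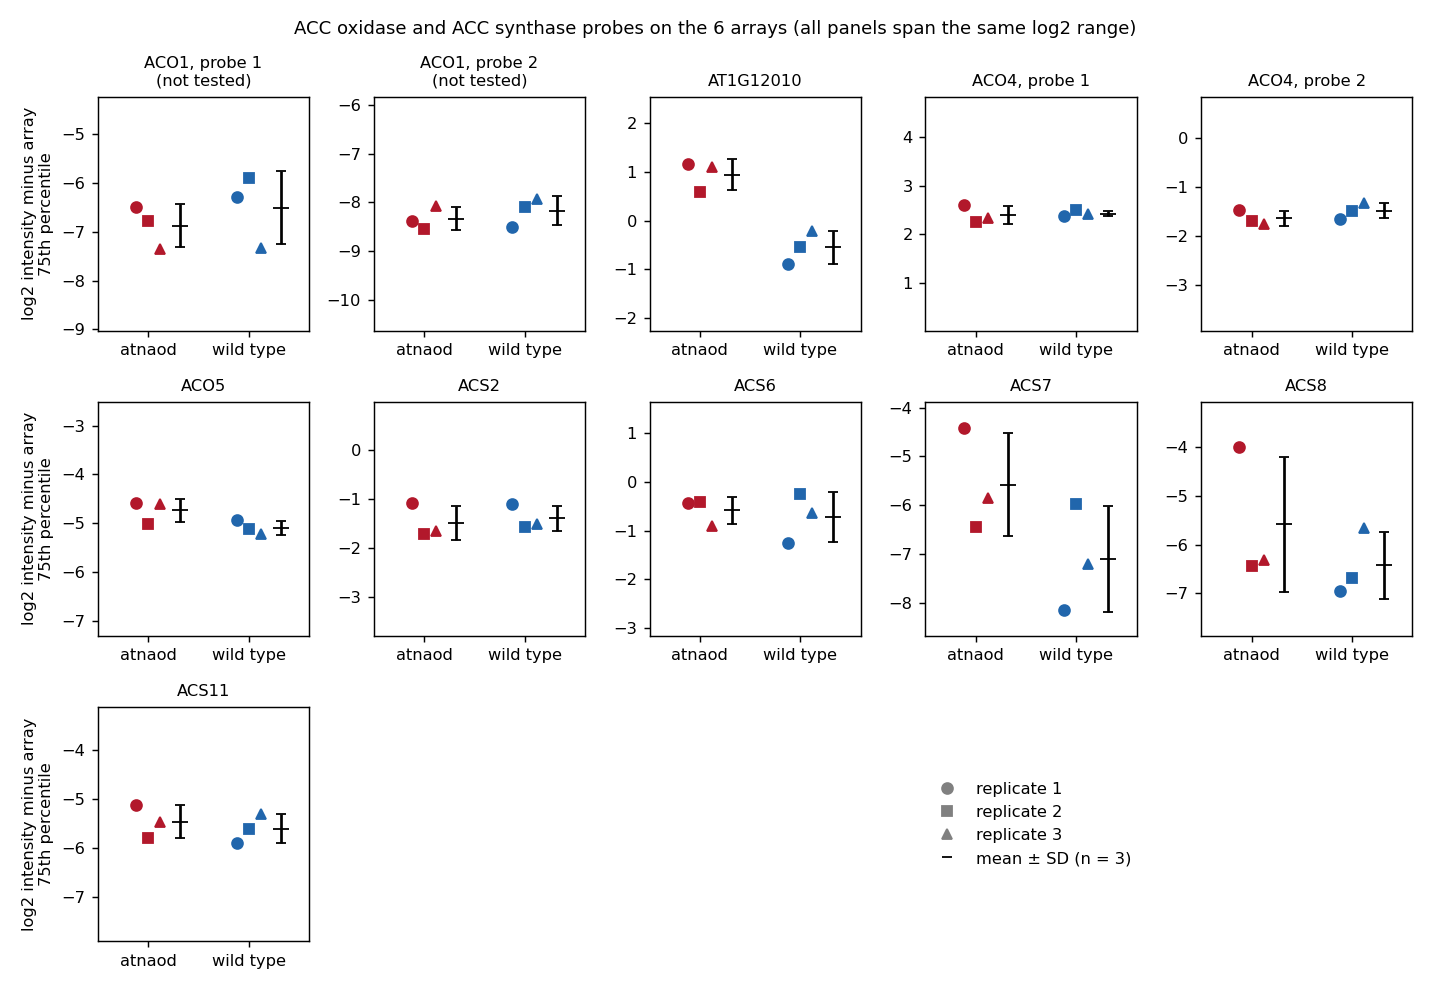
Log2 level (log2 intensity relative to the 75th percentile of the array) of the 11 probes of the set, 1 panel a probe, with atnaod in red and wild type in blue; symbols are single samples by replicate number, and the bar beside them is the mean with its SD (n = 3). The panels span the same log2 range, and the genotypes stand apart for AT1G12010.

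ACC oxidases carry out the last step, the oxidation of ACC to ethylene. AT1G12010 had a log2 level of 1.16, 0.58 and 1.09 in atnaod flowers, against -0.88, -0.55 and -0.22 in wild-type flowers. All 3 atnaod samples stood above all 3 wild-type samples, and the gap between the lowest atnaod and the highest wild-type sample exceeded the SD within either genotype. The means were 0.94 ± 0.32 in atnaod and -0.55 ± 0.33 in wild type (SD, n = 3 each), a difference of 1.49 (SE 0.215, 95% interval 0.98 to 2.00) or 2.82-fold (1.98 to 4.01), with limma's adjusted p at 0.0251. Fitted to all 32494 tested probes in place of genes, limma gave it an adjusted p of 0.0289, where 3.83% of the probes were called. Of all genes tested, 0.662% had a larger absolute difference, and AT1G12010 had the 22nd largest rise among the 664 genes called higher.

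The rise of AT1G12010 was in the signal before any scaling as well. Its background-subtracted intensity was 4357, 4221 and 2877 on the atnaod arrays, against 1629, 1777 and 1126 on the wild-type arrays. The unsubtracted spot signal was 90.5 to 139 times the local background in atnaod and 35.8 to 53.9 times in wild type. The scanner software put the error of each of these spots at 10%. It gave the same value to every spot of ACO4, ACS2 and ACS6, so this is no precision particular to AT1G12010. The difference was 1.58 on the slide that held samples 1 and 2 of both genotypes and 1.31 on the slide that held sample 3 of both. RNA of whole flowers was measured, so more cells of a type and more RNA per cell cannot be told apart.

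The size of the AT1G12010 difference moved little with the processing, but its call rested on a narrow margin. Under 18 other settings the difference lay between 1.24 and 1.68, and it was called in 11 of them. The call was lost with the deposited values (difference 1.47, limma's adjusted p 0.0548), without a filter on dim probes (1.49, 0.105), on the first slide alone (1.58, 0.131), and without atnaod 2 (1.68, 0.0819), atnaod 3 (1.42, 0.0593), wild type 2 (1.49, 0.102) or wild type 3 (1.66, 0.0781). The limma p before adjustment over genes stayed between 0.000132 and 0.00162 when single samples were left out.

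**Figure D2:**
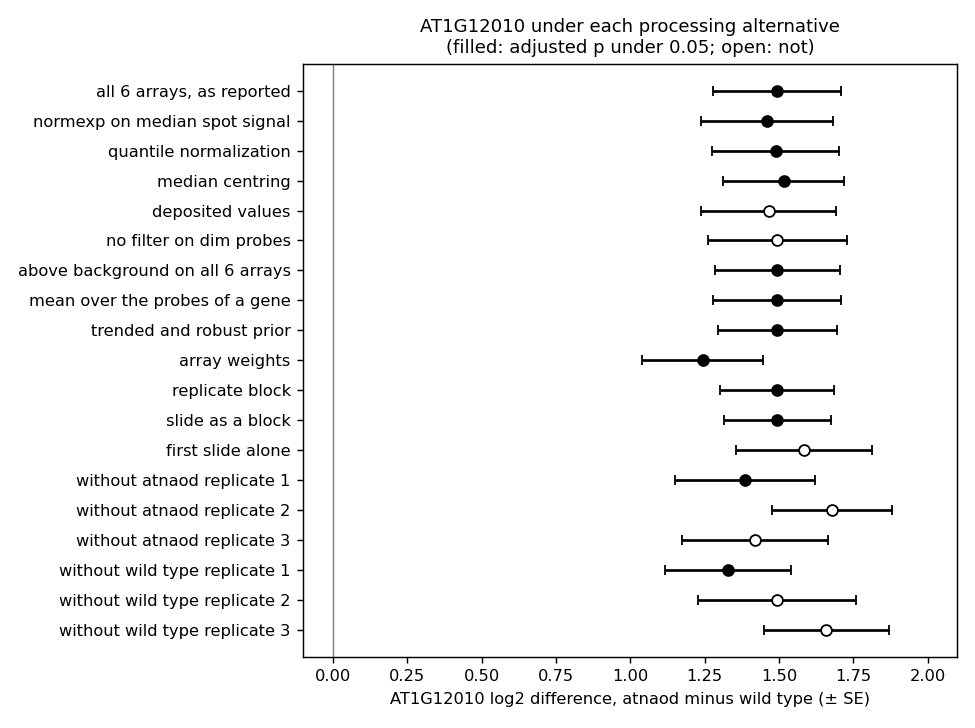
Log2 difference of AT1G12010, atnaod minus wild type, with its SE, as reported (top) and under the 18 other settings; filled points have an adjusted p under 0.05. The difference lies between 1.24 and 1.68 under every other setting, and 11 of those points are filled.

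ACO4, the gene first known as the ethylene-forming enzyme, showed no detectable difference. Its brighter probe read 2.60, 2.25 and 2.35 in atnaod flowers, against 2.38, 2.49 and 2.41 in wild-type flowers. The samples of the genotypes were interleaved, and the interval of the difference ran from -0.29 to 0.23 around -0.03 (limma, adjusted p = 0.896). The dimmer ACO4 probe read -1.46, -1.69 and -1.76 in atnaod, against -1.64, -1.48 and -1.33 in wild type, a difference of -0.16 with an interval from -0.45 to 0.14. A change of ACO4 as large as that of AT1G12010 lay outside both intervals.

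ACO5 and ACO1 were dim. ACO5 had a log2 level of -4.59, -5.01 and -4.61 in atnaod flowers, against -4.93, -5.12 and -5.23 in wild-type flowers, with a spot signal 2.75 to 3.93 times the local background over the 6 arrays. Wild type 1 lay above atnaod 2, so that the genotypes overlapped, and the difference of 0.36 (95% interval 0.02 to 0.70) had an adjusted p of 0.180 by limma. ACO1 could not be tested: its brighter probe was well above background on 1 of 3 atnaod arrays and 2 of 3 wild-type arrays, and its other probe on none.

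The measured ACO1 levels overlapped. They were -6.48, -6.78 and -7.36 in atnaod flowers and -6.28, -5.90 and -7.34 in wild-type flowers at the brighter probe, where the software's spot error was 18.3% to 52.1%. The difference of the means, -0.37, was smaller than the SD in atnaod (0.44) and in wild type (0.75), and no difference in ACO1 was detectable at this signal.

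The rise of AT1G12010 was set against ACO4 and the dim ACO5 on the same array. The levels were already scaled within each array, and AT1G12010 was taken because it rose. The comparison is therefore a description and no independent support. The log2 level of AT1G12010 minus that of the brighter ACO4 probe was 1.52 higher in atnaod than in wild type. The same difference was 1.14 against ACO5. In both comparisons the 3 atnaod arrays lay above the 3 wild-type arrays, and the two-sided exact permutation p was 0.1 each time, the smallest that 3 against 3 samples allow, so that these tests could not pass 0.05.

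**Figure D3:**
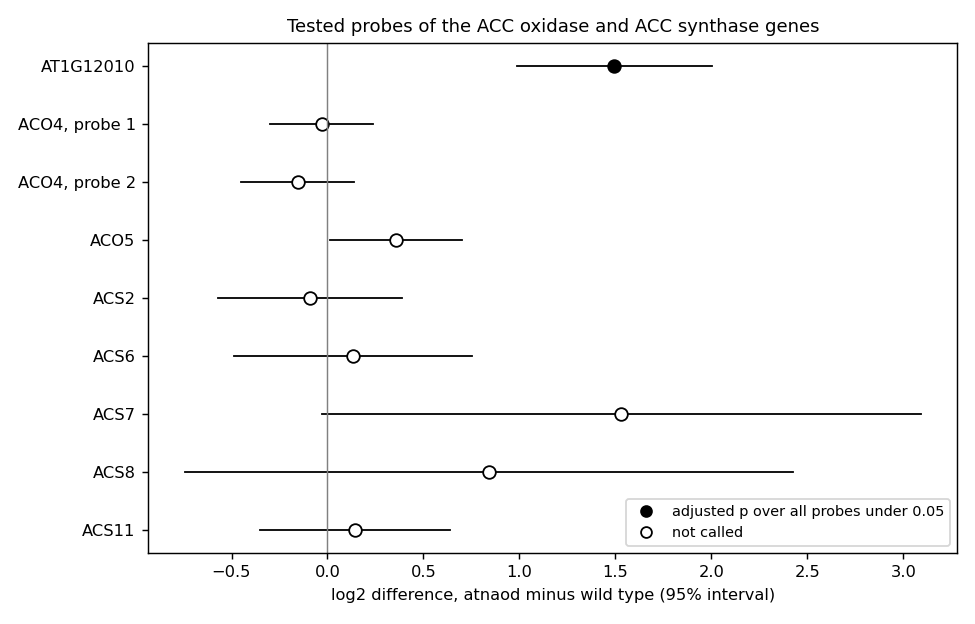
Log2 difference, atnaod minus wild type, of the 9 tested probes with its 95% interval from limma; filled points have an adjusted p over all probes under 0.05. AT1G12010 is the 1 filled point, and the intervals of ACS7 and ACS8 are the widest.

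ACC synthases make ACC from SAM. Of the 5 synthase genes 0 were called in atnaod flowers by limma, beside 5.76% of all genes. An unadjusted p under 0.05 was found for 0 of the 5, beside 25.8% of all genes. The differences of 4 genes were above 0 (80%, beside 48.8% of all genes) and that of 1 was below. Among the 4, ACS7 and ACS8 passed the signal filter through atnaod alone. The samples of the genotypes overlapped for all 5, while they stood apart for 32.3% of all genes. So few genes cannot show that the synthases as a family were unchanged.

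ACS2 and ACS6, whose proteins are stabilised through phosphorylation by the kinases MPK3 and MPK6, gave spot signals 14.7 to 60.8 times the local background. ACS2 had a log2 level of -1.09, -1.72 and -1.65 in atnaod flowers, against -1.10, -1.58 and -1.51 in wild-type flowers. Sample 1 was the highest of its genotype in both, and the difference was -0.09 (95% interval -0.57 to 0.39, limma's adjusted p 0.813). ACS6, which is also known to be induced by touch and wounding, read -0.44, -0.42 and -0.90 in atnaod, against -1.26, -0.25 and -0.65 in wild type. Wild type 1 was the lowest and wild type 2 the highest of the 6 samples, and the difference was 0.13 (95% interval -0.49 to 0.75, adjusted p 0.793). Without wild type 1 the ACS6 difference was -0.14.

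ACS7, which lacks the phosphorylation sites of the other classes and whose protein is a target of the ubiquitin ligase XBAT32, was measured well above background in atnaod flowers but mostly not in wild-type flowers. Its log2 level was -4.41, -6.46 and -5.86 in atnaod flowers, against -8.14, -5.97 and -7.21 in wild-type flowers. The probe was well above background on 3 of 3 atnaod arrays and 1 of 3 wild-type arrays, and wild type 1 and 3 lay below their arrays' lowest level of any probe marked above background (-6.82 and -6.16). The probe passed the filter through atnaod alone, and these 2 wild-type values leave the size of its difference uncertain. Wild type 2 lay above atnaod 2, and the difference of 1.53 (95% interval -0.04 to 3.10) did not pass the test in limma across all genes (unadjusted p 0.0551, adjusted p 0.204). The spot signal was 1.88 to 3.81 times the local background, with a software spot error of 11% to 61.4%. Under the 17 other settings that could fit it, the ACS7 difference lay between 0.43 (normexp) and 2.1 (without wild type 2) and was called in 0. It was 0.95 without atnaod 1, 1.01 without wild type 1 and 1.48 without wild type 3.

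ACS8, a synthase gene known to be induced by auxin, had a log2 level of -4.0, -6.45 and -6.32 in atnaod flowers, against -6.94, -6.68 and -5.66 in wild-type flowers. Atnaod 1 stood far above the other 5 samples, and wild type 3 came next. The ACS8 probe was well above background on 3 of 3 atnaod arrays and 1 of 3 wild-type arrays, with wild type 1 and 2 below their arrays' lowest marked levels (-6.82 and -6.40), so it too passed the filter through atnaod alone and its wild-type mean is uncertain. The difference was 0.84 (95% interval -0.76 to 2.44, limma's adjusted p 0.482), with 1.59 on the slide of samples 1 and 2 and -0.66 on that of sample 3. The difference was 0.35 with normexp and 0.05 without atnaod 1. ACS11 read -5.12, -5.79 and -5.47 in atnaod, against -5.90, -5.62 and -5.30 in wild type, a difference of 0.14 (95% interval -0.35 to 0.64, adjusted p 0.712).

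Atnaod 1 and wild type 1 were at the ends of the range for many genes of the set. Atnaod 1 held the highest of the 6 values for 7 of the 8 tested genes, 4 of the 5 synthases among them. Wild type 1 held the lowest for 5 of the 8, again with 4 of the 5 synthases. The median deviation of the set's 8 tested genes from the wild-type mean was 0.49, 0.03 and 0.12 in atnaod 1, 2 and 3. In wild type 1, 2 and 3 it was -0.31, -0.01 and 0.03. For the 10 tested ethylene response factor and target genes these medians were 0.51, 0.13 and 0.20, against -0.30, 0.06 and 0.13. The 8 touch and wounding markers were TCH2, TCH3, TCH4, WRKY40, ZAT12, ZAT10, ERF5 and ERF6. Their median was also highest in atnaod 1 and lowest in wild type 1, but stood higher than the set's in sample 2. It was 0.50, 0.31 and 0.15 in atnaod 1, 2 and 3, against -0.47, 0.40 and 0.06 in wild type 1, 2 and 3. All 8 touch and wounding markers were tested and 0 were called by limma, beside 5.76% of all genes. An unadjusted p under 0.05 was found for 3, beside 25.8% of all genes. The log2 of their summed level ran from 3.05 to 3.77 in atnaod and from 2.57 to 3.34 in wild type. Here and below, a summed level is ruled by the brightest probes of its list and does not stand for every gene in it. The touch and wounding markers with the lowest p were ERF6 (difference 0.49, limma's adjusted p 0.0530), WRKY40 (1.14, 0.0820) and TCH4 (1.0, 0.161). Their part in the values of the synthase genes was not tested. AT1G12010 was called both without atnaod 1 (difference 1.38) and without wild type 1 (1.33).

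**Figure D4:**
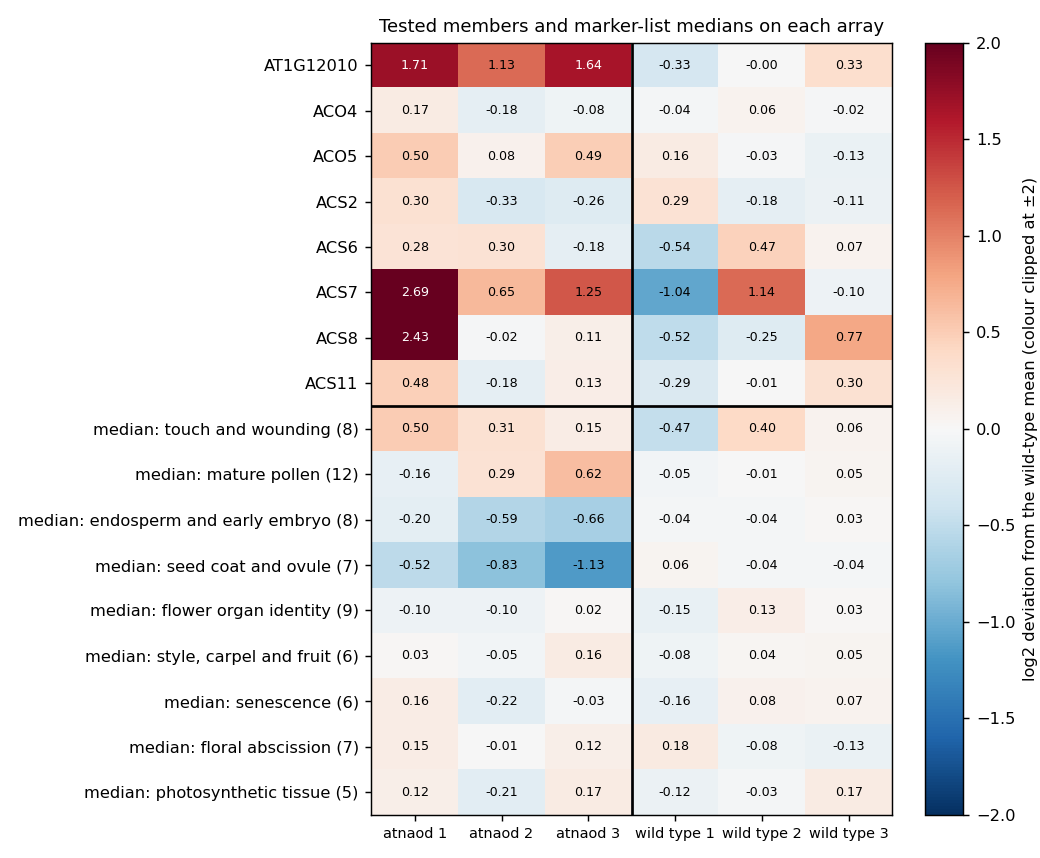
Deviation of each array (columns) from the wild-type mean on the log2 scale, for the 8 tested genes of the set (upper rows) and for the median of each marker list (lower rows, number of tested markers in brackets); red is higher and blue lower. AT1G12010 is above the wild-type mean on all 3 atnaod arrays, ACS7 and ACS8 are highest on atnaod 1, and the seed coat median is below 0 on all 3 atnaod arrays.

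Some markers of the seed coat, ovule, endosperm and embryo were lower in atnaod in the same RNA. Of 7 seed coat and ovule markers 5 fell in atnaod flowers by limma: BAN, which encodes anthocyanidin reductase (difference -1.06), the regulators TT2 (-1.02), TTG2 (-0.86) and TT8 (-0.65), and the ovule identity gene STK (-0.73), with adjusted p of 0.0259 to 0.0372. Lower calls made up 3.05% of all genes. INO of the same list differed by 0.05 (limma's adjusted p 0.799). Under the 18 other settings TT8 was called in 10 and BAN, TT2, TTG2 and STK in 9 each, and with the replicate block TT12 was called too (difference -0.78, adjusted p 0.0444, against 0.0607 without the block). The log2 of the list's summed level was 3.11 to 3.53 in atnaod and 4.0 to 4.09 in wild type. STK and BAN, with mean wild-type levels of 3.04 and 2.43, weigh most in this sum. Of 8 tested endosperm and early embryo markers 2 fell, CLE8 (difference -2.06, adjusted p 0.0285) and LEC1 (-0.68, 0.0264), and the summed level was -1.87 to -1.16 in atnaod and -1.0 to -0.92 in wild type; AGL28 differed by -0.60 with an adjusted p of 0.0742, and MEA by 0.38 (0.304). Under the 18 other settings CLE8 was called in 9, with differences from -2.36 to -1.05, and LEC1 in 10, from -0.73 to -0.35. PHE1 and IKU2 of that list were above background on no array.

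Other tissue markers moved less or not detectably. Of 12 tested pollen markers 0 were called, beside 5.76% of all genes, and 0 had an unadjusted p under 0.05, beside 25.8%. Their summed level was 3.63 to 4.64 in atnaod and 3.79 to 4.06 in wild type. The lowest p were those of PRK2 (difference 0.56, adjusted p 0.218), ROPGEF12 (0.48, 0.222, above background on 1 of 3 wild-type arrays) and ANX2 (0.49, 0.235), while DUO1, HAP2 and GEX2 were above background on no array. The valve margin genes SHP1 (difference -0.49, limma's adjusted p 0.0382) and SHP2 (-0.48, 0.0312) fell among 6 carpel and fruit markers. Lower calls made up 3.05% of all genes, and SHP1 and SHP2 were each called in 9 of the 18 other settings. CRC of the same list differed by 0.59 (adjusted p 0.0599), which the replicate block made 0.0438. Of the 5 photosynthetic markers 0 were called, also with 0 at an unadjusted p under 0.05, and GAPA, PSAD-1 and LHCB2.1 had the lowest p (adjusted p 0.515, 0.541 and 0.789). The part of these tissue markers in the rise of AT1G12010 was not tested.

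Around the set, 59 other genes of the ethylene route were read in the same fit, of which 53 could be tested. Only ACS10 was called, as higher in atnaod, and 0 were called as lower, a share of 1.89% beside 5.76% of all genes. At an unadjusted p under 0.05 there were 15 genes (28.3%), beside 25.8% of all genes. The median difference was 0.14 beside -0.01 for all genes, and 38 of the 53 differences (71.7%, beside 48.8% of all genes) were above 0. PDF1.2, among the 38, passed the signal filter through atnaod alone, so this median and these signs are descriptions. The genotypes did not overlap for 19 genes (35.8%, beside 32.3% of all genes). Atnaod was above for 15 (28.3%, beside 15.3% of all genes) and below for 4 (7.55%, beside 17%).

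ACS10 belongs to the ACC synthase family by sequence but encodes an aminotransferase without ACC synthase activity. It had a log2 level of 2.21, 2.27 and 2.46 in atnaod flowers, against 1.75, 1.84 and 1.90 in wild-type flowers. The genotypes did not overlap, and the difference was 0.48 (95% interval 0.25 to 0.72, limma's adjusted p 0.0434). It was called in 9 of the 18 other settings, where the difference lay between 0.41 and 0.54. ACS12, the other such enzyme, differed by 0.01 (adjusted p 0.958), and ACS1, ACS4, ACS5 and ACS9 were not above background on all arrays of either genotype.

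The genes upstream of the synthases showed 0 calls by limma, beside 5.76% of all genes. So few genes cannot show that this supply was unchanged. Counts at an unadjusted p under 0.05 stand beside 25.8% of all genes. The 4 SAM synthetases, SAM1, SAM2, MAT3 and MAT4, had a median difference of -0.06 and ran from -0.19 for MAT4 (adjusted p 0.328) to 0.06 for SAM1 (0.768); SAM2 differed by -0.15 (0.491) and MAT3 by 0.03 (0.868), and 0 had an unadjusted p under 0.05. Of the 9 genes of the Yang cycle, which returns the methylthio group of SAM to methionine, 2 (22.2%) had an unadjusted p under 0.05. These were the methylthioribose kinase gene MTK, with 0.87, 0.96 and 0.86 in atnaod against 0.57, 0.58 and 0.36 in wild type (difference 0.40, adjusted p 0.0602), and the acireductone dioxygenase gene ARD3 (0.75, 0.188). ARD3 was dim, with intensities of 31.1 to 83.7 over the 6 arrays. The isomerase gene MTI1 differed by -0.22 (0.215) and ARD4 by -0.28 (0.369).

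The SAM decarboxylases compete with the synthases for SAM on the way to polyamines. Of the 4 genes 3 had an unadjusted p under 0.05, beside 25.8% of all genes, and 0 were called, beside 5.76%. AT3G02470 read 5.93, 5.48 and 5.68 in atnaod flowers, against 5.36, 5.27 and 5.40 in wild-type flowers, and AT5G15950 read 3.40, 3.04 and 3.17 in atnaod, against 2.98, 2.80 and 2.93 in wild type. Both were apart between the genotypes, with differences of 0.35 and 0.30 (adjusted p 0.147 and 0.171). BUD2 was apart in the other direction, with -2.78, -2.93 and -2.96 in atnaod against -2.73, -2.59 and -2.47 in wild type (difference -0.29, adjusted p 0.140). The genotypes were apart in this way for 32.3% of all genes. AT3G25570 differed by 0.12 (0.558).

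Among 7 genes that set the stability of the synthase proteins, 0 were called, beside 5.76% of all genes. An unadjusted p under 0.05 was found for 1 (14.3%, beside 25.8% of all genes). All 7 differences were above 0, beside 48.8% of all genes, with a median of 0.14 and a range from 0.01 for EOL1 to 0.32 for ETO1. The list mixes genes whose products destabilise synthases with kinase genes whose products stabilise them, so the shared sign has no single meaning. ETO1, whose protein marks synthases for degradation, read -2.02, -1.99 and -1.93 in atnaod, against -2.21, -2.34 and -2.33 in wild type (difference 0.32, adjusted p 0.0765). XBAT32 differed by 0.21 (0.273), the ETO1 relative EOL2 by 0.14 (0.466) and the kinase gene MPK3 by 0.19 (0.536).

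Receptors and signalling genes downstream of ethylene were also without a call, beside 5.76% of all genes. Of 6 receptor genes, RTE1 counted among them as a receptor regulator, 3 had an unadjusted p under 0.05, beside 25.8% of all genes. ETR1 read 1.15, 1.46 and 1.39 in atnaod flowers, against 0.93, 0.82 and 0.86 in wild-type flowers (difference 0.46, adjusted p 0.0535), and EIN4 differed by 0.25 (0.156) and ERS1 by 0.24 (0.241). RTE1, which promotes signalling by ETR1, was lower in all 3 atnaod samples (difference -0.26, adjusted p 0.104). Of 11 signalling genes 4 (36.4%, beside 25.8% of all genes) had an unadjusted p under 0.05. Differences were above 0 for 9 of the 11 (81.8%, beside 48.8% of all genes). The 4 included the F-box gene EBF1, whose protein directs the degradation of EIN3 (difference 0.46, limma's adjusted p 0.0550). The others were the exoribonuclease gene XRN4 (0.40, 0.119), and the transcription factor genes EIL3 (0.29, 0.154) and EIN3 (0.20, 0.189).

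Of the 10 tested response factor and target genes 0 were called, beside 5.76% of all genes. An unadjusted p under 0.05 was found for 1 (10%, beside 25.8% of all genes). The difference was above 0 for 9 (90%, beside 48.8% of all genes), with a median of 0.40. EDF1 differed by 0.44 (limma's adjusted p 0.190), EDF3 by 0.45 (0.212) and ERF2 by 0.55 (0.241). EDF3 and ERF2 were dim, with intensities of 25.9 to 81.5 and 45.8 to 82.4 over the 6 arrays. The defensin gene PDF1.2, a target of joint ethylene and jasmonate signalling, read -3.44, -5.39 and -5.51 in atnaod, against -6.70, -5.25 and -6.61 in wild type, where it was above background on 1 of 3 arrays. The genotypes overlapped, atnaod 1 again held the highest value and wild type 1 the lowest, and the difference of 1.41 had an adjusted p of 0.212 by limma. PDF1.2 passed the signal filter through atnaod alone, the genotype where it was higher. The list's median and its count above 0 are therefore descriptions that lend no support to a shift.

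**Figure D5:**
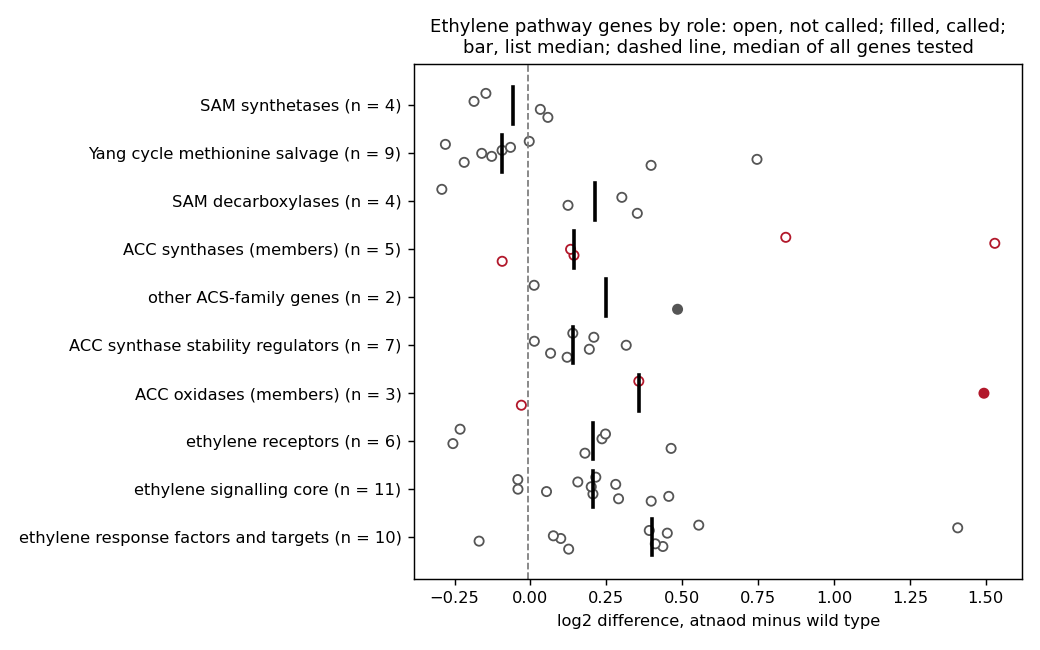
Log2 difference, atnaod minus wild type, of each tested gene of the ethylene route, by role from SAM supply (top) to response (bottom); the 8 genes of the set are in red, filled points were called, the bar is the list's median, and the dashed line is the median of all genes tested. AT1G12010 and ACS10 are the 2 filled points, and the medians of the SAM synthetase and Yang cycle lists are below 0 and those of the other lists above it.

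The genes whose pattern over the 6 arrays was most like those of the oxidase and the synthase with the lowest p were listed as a description, without a test. For AT1G12010 these were PAF2, CNGC8 and HMG1, with Pearson's r of 0.996, 0.995 and 0.994 over 6 arrays among 9247 genes with a symbol; CNGC8 was itself called higher in atnaod (difference 0.63, limma's adjusted p 0.0329). By the deviations from the genotype means, ATSIK, TOM20-3 and BBX32 came first (r 0.998, 0.997 and 0.996). For ACS7 they were ECT8, GT2 and CCD1 by level (r 0.987, 0.986 and 0.986) and MAPKKK21, GNA1 and MYB62 by deviation (r 0.999, 0.998 and 0.996). With 6 arrays that share 2 genotypes and 2 slides, and with so many genes to choose from, values this high say little about any 1 gene.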

How the data were processed

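Spot values were fluorescence intensity, deposited as scanner output of Agilent Feature Extraction (10.5 per the submitters' processing notes, 10.5.1.1 per the file headers), background-subtracted within the array. The authors' deposited processed values also hold intensity, and in each column they equalled the spots' median signal scaled by a single factor for that array. Log2 of the processed intensity minus the array's 75th percentile was computed here, and outlier spots (2 to 35 per array) were left out. The 75th percentile was 1348 to 2832 intensity units in atnaod and 1311 to 2998 in wild type, and 3 arrays a genotype limit the precision. A gene was represented by its tested probe with the highest mean. Files were read with data.table, version 1.17.8, and genes were compared in R 4.3.3 with limma 3.58.1 (lmFit and eBayes, two-sided, Benjamini-Hochberg adjustment), and the code was tested on simulated data. Normexp was run on the median spot signal.

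The members and lists were chosen with earlier results of these data known. One gene that the locus rule takes is not reported here. Named were the other 9 members, AtNAOD, called genes of each list with the 4 (pathway) or 3 (marker) of lowest p, and the 3 genes most like AT1G12010 and ACS7. Probe sequences, positions and cross-binding between family members were not analysed here.

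The first 2 samples of each genotype lay on 1 slide, scanned together, and the others on a second slide, so that slide and scan cannot be told apart. Deviations from the genotype means correlated between same-number samples at 0.190, 0.111 and 0.535. Other combinations lay between -0.354 and 0.215. The 0.535 belonged to sample 3 of both genotypes, the samples of the second slide. The reported tests did not pair the samples, and the replicate number entered only as a block in a separate setting.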

Additional observations from a re-analysis of the deposited data

How the results depend on the processing

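The count of set members called higher (1) became 0 with the deposited values, with dim probes kept and on the first slide alone, and was 0 to 1 with single samples left out. For other ethylene genes the count of higher calls (1) became 0 with normexp, the deposited values, dim probes kept and the first slide alone, 2 with median centring, 3 with a filter asking for all 6 arrays and with slide as a block, 4 with a trended and robust prior, 6 with array weights, and 0 to 2 with single samples left out. Lower calls became 2 with array weights. Over all genes, 1409 calls became 225 with normexp, 12 with the deposited values, 22 with dim probes kept, 2258 with the trended prior, 3874 with array weights, 13 on the first slide alone and 15 to 1553 with single samples left out (atnaod 2 and atnaod 1 for these ends). With the replicate block 1259 genes were called, AT1G12010 and ACS10 (adjusted p 0.0463) among them, and of the list genes TT12, CRC and ADPG2 gained a call; the block changed no other call of a member or list gene.

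Of 160 differences of the members and AtNAOD under other settings, 145 kept direction and side of the threshold, 7 of AT1G12010 lost the call and 8 changed sign, all of genes that were not called. These were ACO4 without atnaod 2 (0.043) or wild type 2 (0.0019), ACS2 without atnaod 2 (0.023) or wild type 1 (0.054), ACS6 without wild type 1 (-0.14), and ACS11 with array weights (-0.083), without atnaod 1 (-0.026) or without wild type 1 (-0.00074). With single samples left out, the differences ran from -0.129 to 0.043 for ACO4, from -0.292 to 0.054 for ACS2, from -0.139 to 0.366 for ACS6 and from -0.026 to 0.308 for ACS11. The cause was not tested, except that the first slide and each left-out sample leave fewer samples. Low signal over background limits ACO1, ACO5, ACS7, ACS8 and ACS11.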

Other observations

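Genes of floral organ shedding and ageing, processes in which ethylene takes part, were read beside the set. Of 7 abscission markers 1 fell and 2 rose in atnaod flowers by limma, where 5.76% of all genes were called. IDA, which encodes the peptide that triggers shedding, had a log2 level of -3.71, -3.78 and -3.73 in atnaod flowers, against -3.12, -2.91 and -3.04 in wild-type flowers (difference -0.71, adjusted p 0.0201). BOP1 and BOP2, which are needed to form the abscission zone, rose by 0.90 and 0.65 (adjusted p 0.0285 and 0.0264), and for all 3 genes the genotypes did not overlap. Under 18 other settings IDA was called in 10, BOP1 in 9 and BOP2 in 11, with differences from -0.76 to -0.49 for IDA, from 0.54 to 1.05 for BOP1 and from 0.58 to 0.69 for BOP2. BOP1 was dim, with intensities of 34.1 to 172 over the 6 arrays. The polygalacturonase gene ADPG2 differed by 0.69 (adjusted p 0.427), which the replicate block made 0.0441. Of 6 senescence markers 0 were called, with 1 (16.7%, beside 25.8% of all genes) at an unadjusted p under 0.05. This was NAP, which differed by 0.28 (limma's adjusted p 0.156). SAG12 differed by -0.16 (0.468) and SAG13 by -0.19 (0.555).

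Of the 18 coding genes next to the 9 members in the reference's gene order, 13 were tested and 1 (7.69%, beside 5.76% of all genes) was called: AT4G11290, beside ACS6, differed by 1.25 (limma's adjusted p 0.0199). These neighbours were looked up after the data were seen. The genes next to AT1G12010 differed by -0.13 (AT1G12000, adjusted p 0.621) and 0.02 (AT1G12020, 0.943).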
